A study of Rattus norvegicus with 54 samples.

Results

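The proteasome genes measured here are the 44 probe sets whose single annotated symbol begins with Psma, Psmb, Psmc, Psmd, Psme, Psmf or Psmg, with Psmb8 and Psmb9 left out. They stand for 41 genes, out of 15866 probe sets on a rat expression array once control features are set aside. Psme4 has 3 probe sets, Psmd11 has 2, and the other 39 genes have 1 each. The prefix also takes in 2 genes, Psmc3ip and Psme3ip1, that are named after a subunit without being one, and 6 probe sets that carry a Psm symbol beside other symbols are not among the members. Transcripts were measured in epididymal adipose tissue, liver and gastrocnemius muscle of male Zucker rats. The 6 groups in each tissue were lean fa/+ rats, untreated obese fa/fa rats, and fa/fa rats given pioglitazone, rosiglitazone, troglitazone or AG035029. The fa allele inactivates the leptin receptor, lean rats carry 1 copy of it, and every ligand group shares the fa/fa genotype of the untreated obese group. Each group had 3 arrays and each array held pooled RNA of 2 rats, so p-values measure the spread between pools. Ages, doses and treatment times are not given in the sources used here. Pioglitazone, rosiglitazone and troglitazone are thiazolidinediones, agonists of the nuclear receptor PPARgamma, and AG035029 is a PPARgamma ligand known here by its code name.

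The proteasome degrades proteins that carry ubiquitin chains. Its 20S core is a barrel of outer alpha rings and inner beta rings, and the beta rings hold the catalytic sites. A 19S particle caps the core: its base contains ATPases that unfold substrates and non-ATPase subunits that receive them, and its lid removes ubiquitin. Other caps (Psme1 with Psme2, and Psme4) can open the core without ubiquitin, and the Psmg and several Psmd proteins are chaperones that build the particle. Immune cells and cytokine-treated cells exchange the standard catalytic subunits for Psmb8, Psmb9 and Psmb10. Amounts of subunit transcripts are adjusted together in many cells, in part through the transcription factors Nfe2l1 and Nfe2l2, which bind antioxidant response elements. The members do not cover every subunit. They hold 7 of 8 listed alpha ring genes, 6 of 7 beta ring genes, 5 of 6 base ATPases and 6 of 8 lid genes. The catalytic subunit Psmb6, the ATPase Psmc6 and the lid subunits Psmd12 and Psmd14 are not among them.

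The upstream sequences of 3 member genes with a probe set that was higher in adipose tissue under the ligands (for Psme4, 1 of its 3 probe sets) are shown because each holds the core letters of the antioxidant response element, TGACNNNGC, on one or the other strand. The sequences run from 250 bases before the RefSeq transcription start up to the base before it, on the strand of the gene in build GRCr8, and capitals mark the match. Psmb2 lies on chr5:144254808-144255057 (+), Psmb5 on chr15:32047380-32047629 (-) and Psme4 on chr14:108706393-108706642 (+).
Psmb2: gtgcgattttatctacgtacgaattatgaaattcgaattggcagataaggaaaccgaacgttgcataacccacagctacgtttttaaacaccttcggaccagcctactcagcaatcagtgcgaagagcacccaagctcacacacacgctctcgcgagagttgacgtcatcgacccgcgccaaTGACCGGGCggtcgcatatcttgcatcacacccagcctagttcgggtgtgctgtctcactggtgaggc
Psmb5: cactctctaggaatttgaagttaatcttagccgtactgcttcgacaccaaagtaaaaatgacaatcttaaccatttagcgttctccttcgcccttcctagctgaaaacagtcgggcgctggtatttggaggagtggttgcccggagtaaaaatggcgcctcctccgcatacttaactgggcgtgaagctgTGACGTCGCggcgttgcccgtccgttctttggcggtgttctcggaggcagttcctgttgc
Psme4: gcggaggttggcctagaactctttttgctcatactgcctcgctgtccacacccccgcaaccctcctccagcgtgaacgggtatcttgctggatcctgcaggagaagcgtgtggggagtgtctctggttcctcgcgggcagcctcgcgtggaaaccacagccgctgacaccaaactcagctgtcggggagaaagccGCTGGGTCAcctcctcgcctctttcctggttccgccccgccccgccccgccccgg
The match begins 68 bases before the start in Psmb2, 60 in Psmb5 and 55 in Psme4, where it is on the opposite strand. Promoters were given for 39 of the 41 genes, all except Psma7 and Psmd6. TGACNNNGC occurred in 6 of the 39 (15.4%), in Psma3, Psmb2, Psmb5, Psmd1, Psmd9 and Psme4, against 10.1% of 33469 rat promoters of the same length. CCAAT, the letters of the CCAAT box, occurred in 20 of 39 (51.3%) against 34% of all promoters, Psmb2 and Psmb7 included. Of the 6 genes with a member called higher in adipose tissue under the ligands 3 held TGACNNNGC, and Psma6, Psmb7 and Psmd8 did not. Both searches covered both strands. The letters are a description of the sequence, and their part in the ligand differences was not tested.

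All 44 probe sets passed the filter on low signals in each tissue, where 9519 probe sets were tested. Signals are MAS5 values scaled by the authors to the same trimmed mean of 500 on every array, and array medians ran from 190.9 to 248.5. Alb and Apoa1 were highest in liver, Ckm and Acta1 in muscle and Plin1 in adipose tissue, as the tissue labels say. One liver array, troglitazone replicate 3, carried a summed signal of 30239 for 10 skeletal muscle fibre markers, 23.2 times the liver median of 1302. The counts of members called in the liver fits were 0 with it and without it, and such counts do not show its effect on the values.

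Obesity alone was not accompanied by a called change in any member. In adipose tissue 0 of 44 members passed for obese against lean rats (limma, adjusted p under 0.05) while 6.02% of all probe sets did, and 5 members had an unadjusted p under 0.05. In liver the count was 0 of 44, against 0.672% of all probe sets, and in muscle 0 of 44, against 0.021%, with 0 and 3 members at an unadjusted p under 0.05. The median log2 difference of the members was 0.11 (adipose tissue), 0.02 (liver) and 0.13 (muscle), beside -0.02, -0.01 and -0.01 over all probe sets. Differences were above 0 for 34 (adipose tissue), 24 (liver) and 32 (muscle) of 44 members. These are 77.3%, 54.5% and 72.7%, beside 47.2%, 48.6% and 49.0% of all probe sets. The median 95% interval of a member reached 0.27 log2 units to either side for adipose tissue, 0.41 for liver and 0.38 for muscle.

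The members with the smallest p-values in that comparison were Psmd1, the largest subunit of the base, and Psmb5, the subunit with the chymotrypsin-like site. Psmd1 signals were 309, 358 and 312 in lean adipose tissue and 506, 415 and 418 in obese. The 2 groups did not overlap, and the log2 difference of 0.43 ± 0.14 (SE, n = 3 per group) had an adjusted p of 0.0686 (limma). Psmb5 signals were 2402, 2896 and 2716 in lean and 3752, 2801 and 3625 in obese rats. They overlapped, with a difference of 0.34 ± 0.12 and an adjusted p of 0.0988 (limma). Psma4, an alpha ring subunit, differed by 0.36 ± 0.14 with an adjusted p of 0.132 (limma). In liver the smallest p belonged to the chaperone Psmd10 (-0.54 ± 0.27, adjusted p = 0.537, limma), followed by Psme4 probe set 1 (0.33) and Psmd2 (0.36). In muscle it belonged to the ubiquitin receptor Psmd4 (0.36 ± 0.16, adjusted p = 0.976, limma), followed by the chaperone Psmg2 (-0.40) and Psme4 probe set 2 (0.55).

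Under the 4 ligands, 6 of 44 members were higher than in untreated obese rats in adipose tissue and 0 were lower (13.6%), set against 20.6% of all probe sets called, 9.01% higher and 11.6% lower (limma, mean of the 4 ligand groups minus obese). With these values the share of members called was below the share over all probe sets, while the share called higher, 13.6%, was above 9.01%. Median centring raised the share of higher probe sets among all called ones from 43.7% to 63.4%. It gave 10 of 44 members higher and 0 lower, beside 1805 of 9519 probe sets called. There the share of members called was the larger. The 6 were Psmb2, Psmb5 and Psmb7 of the beta ring, Psma6 of the alpha ring, Psmd8 of the lid and probe set 2 of Psme4. The members' median difference was 0.11, beside -0.05 over all probe sets, and 27 of 44 were above 0 (61.4%), beside 42.7% of all probe sets. Of the 13 standard core subunits among the members 4 rose and 11 were above 0. Of their 15 probe sets of the 19S particle 1 rose and 9 were above 0. The 5 base ATPases among the members gave 0 calls and a median of -0.03. The 8 inhibitor and chaperone probe sets gave 0 calls and a median of -0.06.

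Psmb2, a non-catalytic beta ring subunit, had the smallest p. Its signals were 1502, 2064 and 1804 in untreated obese adipose tissue, and in the 12 ligand arrays they ran from 2081 through a median of 2566 to 2856. All 12 ligand arrays were above all 3 untreated ones, and the difference was 0.53 ± 0.10, 1.44-fold, with an adjusted p of 0.00119 (limma). Lean signals, 1454, 1737 and 1785, overlapped with the obese ones.

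Psmb5 and Psmb7 carry 2 of the catalytic sites of the standard core. Psmb5 signals ran from 3743 through 4174 to 4840 in the ligand arrays, against the 3 obese values given above, and only the lowest ligand array lay under the highest obese array. The difference was 0.32 ± 0.09 with an adjusted p of 0.0182 (limma). Psmb7, with the trypsin-like site, read 3420.3, 3086 and 3619 in obese rats and from 3522 through 4080 to 4417 under the ligands. These overlapped at the low end, and the difference was 0.25 ± 0.08 with an adjusted p of 0.0267 (limma).

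Psma6, an alpha ring subunit, read 3688, 3524 and 3625 in obese rats and from 3943 through 4468 to 5099 under the ligands. Psmd8, a lid subunit, read 1794, 1680.4 and 1734 in obese rats and from 1882 through 2144 to 2724 under the ligands. In both, the ligand arrays lay above every obese array, with differences of 0.29 ± 0.09 (adjusted p = 0.0193) and 0.32 ± 0.10 (adjusted p = 0.0320, limma). Psmb2, Psma6 and Psmd8 were the 3 members whose groups did not overlap, against 11.6% of all probe sets.

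Psme4 encodes PA200, a cap known from the nucleus, and its 3 probe sets differed. Probe set 2 read 420.3, 726 and 624 in obese rats and from 676 through 1133 to 1481 under the ligands, a difference of 0.87 ± 0.19 with an adjusted p of 0.00388 (limma). One troglitazone array lay under the highest obese array. Probe set 1 differed by 0.26 ± 0.11 (adjusted p = 0.116) and probe set 3 by -0.31 ± 0.15 (adjusted p = 0.163, limma), so that neither passed and their signs were opposite. The 2 probe sets of Psmd11, a lid subunit, also had opposite signs, -0.20 and 0.19, and neither passed.

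**Figure D1:**
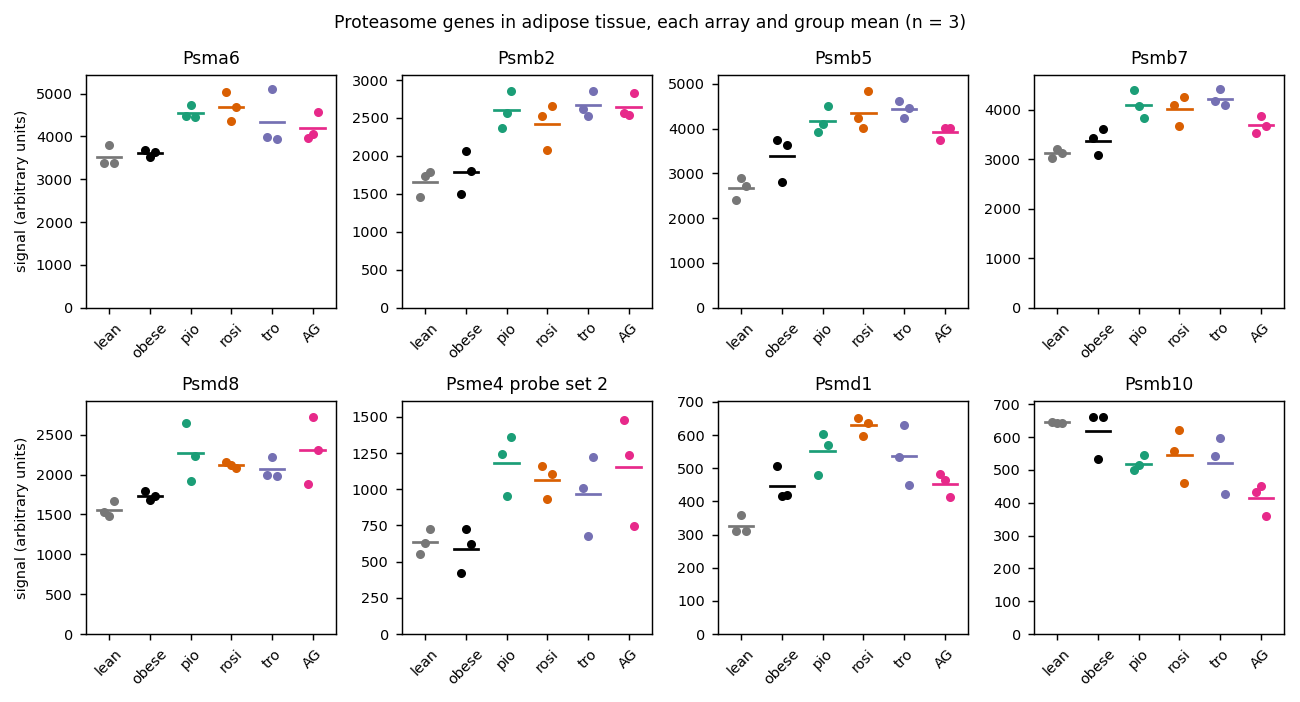
MAS5 signal (arbitrary units, axis from 0) of 8 proteasome probe sets in adipose tissue. Points are arrays and bars are the means of 3 arrays in each group. The axis labels pio, rosi, tro and AG stand for the 4 ligands, beside lean and untreated obese. For Psmb2, Psma6 and Psmd8 all 12 ligand arrays lie above the 3 obese arrays, and Psmb10 is lowest in the AG035029 group.

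Psmb10, the immunoproteasome counterpart of Psmb7, went the other way. Its signals were 648, 644 and 644 in lean rats, 662, 534 and 662 in obese rats, and 433, 451 and 359.5 with AG035029. The AG035029 arrays lay below every untreated array, and the difference from obese was -0.56 ± 0.14 with an adjusted p of 0.0124 (limma). It was lost when AG035029 replicate 3 (adjusted p = 0.0660), obese replicate 1 (0.0551) or obese replicate 3 (0.0535) was left out. Over the 4 ligands the difference was -0.30 ± 0.11 with an adjusted p of 0.0616, which did not pass. It passed with array weights (adjusted p = 0.0298) and without obese replicate 2 (0.0421), rosiglitazone replicate 2 (0.0389) or troglitazone replicate 2 (0.0374). Psme1 and Psme2 form the interferon-inducible cap, and their differences over the 4 ligands were -0.02 ± 0.09 and 0.24 ± 0.09, the latter with an adjusted p of 0.0524 (limma). Psme2 passed under quantile normalization, median centring, array weights and the replicate block, with adjusted p-values from 0.0087 to 0.0424, and without obese replicate 1 (0.0291), rosiglitazone replicate 2 (0.0397) or troglitazone replicate 3 (0.0423).

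Macrophage markers moved in the same samples. The summed signal of 12 macrophage markers was 35671 to 37819 in untreated obese adipose tissue, 17178 to 20682 in lean tissue and 15487 to 32136 across the ligand groups. Of these markers 9 of 12 were lower under the ligands, where 1105 of all 9519 probe sets were called lower and 858 higher. Of 8 lymphocyte and antigen-presenting markers on the array 4 passed the filter on low signals, and 4 of these 4 were lower. Adipocyte markers moved as well: the summed signal of 8 of them was 55644 to 63360 in untreated obese, 57793 to 73322 in lean and 61782 to 88486 in ligand-treated adipose tissue. Of these 8, 4 were higher and 1 was lower under the ligands, with a median difference of 0.33 beside -0.05 over all probe sets. The part of these markers in the differences of the members was not tested. In whole tissue, fewer cells of a type and less RNA per cell cannot be told apart.

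Several of the 6 calls depended on single arrays or on the scaling. Psmb2 kept an adjusted p of at most 0.0218 in all 26 alternatives. The call of Psme4 probe set 2 was lost without obese replicate 1 (adjusted p = 0.0577). Psmb5 was lost under quantile normalization (0.124) and without obese replicate 2 (0.194). Psma6 was lost under quantile normalization (0.161) and without obese replicate 1, 2 or 3 (0.0593, 0.0823 and 0.0679). Psmb7 was lost under quantile normalization (0.334) and without obese replicate 1 or 2 (0.0752 and 0.173). Psmd8 was lost without obese replicate 1, 2 or 3 (0.0780, 0.116 and 0.0965).

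**Figure D2:**
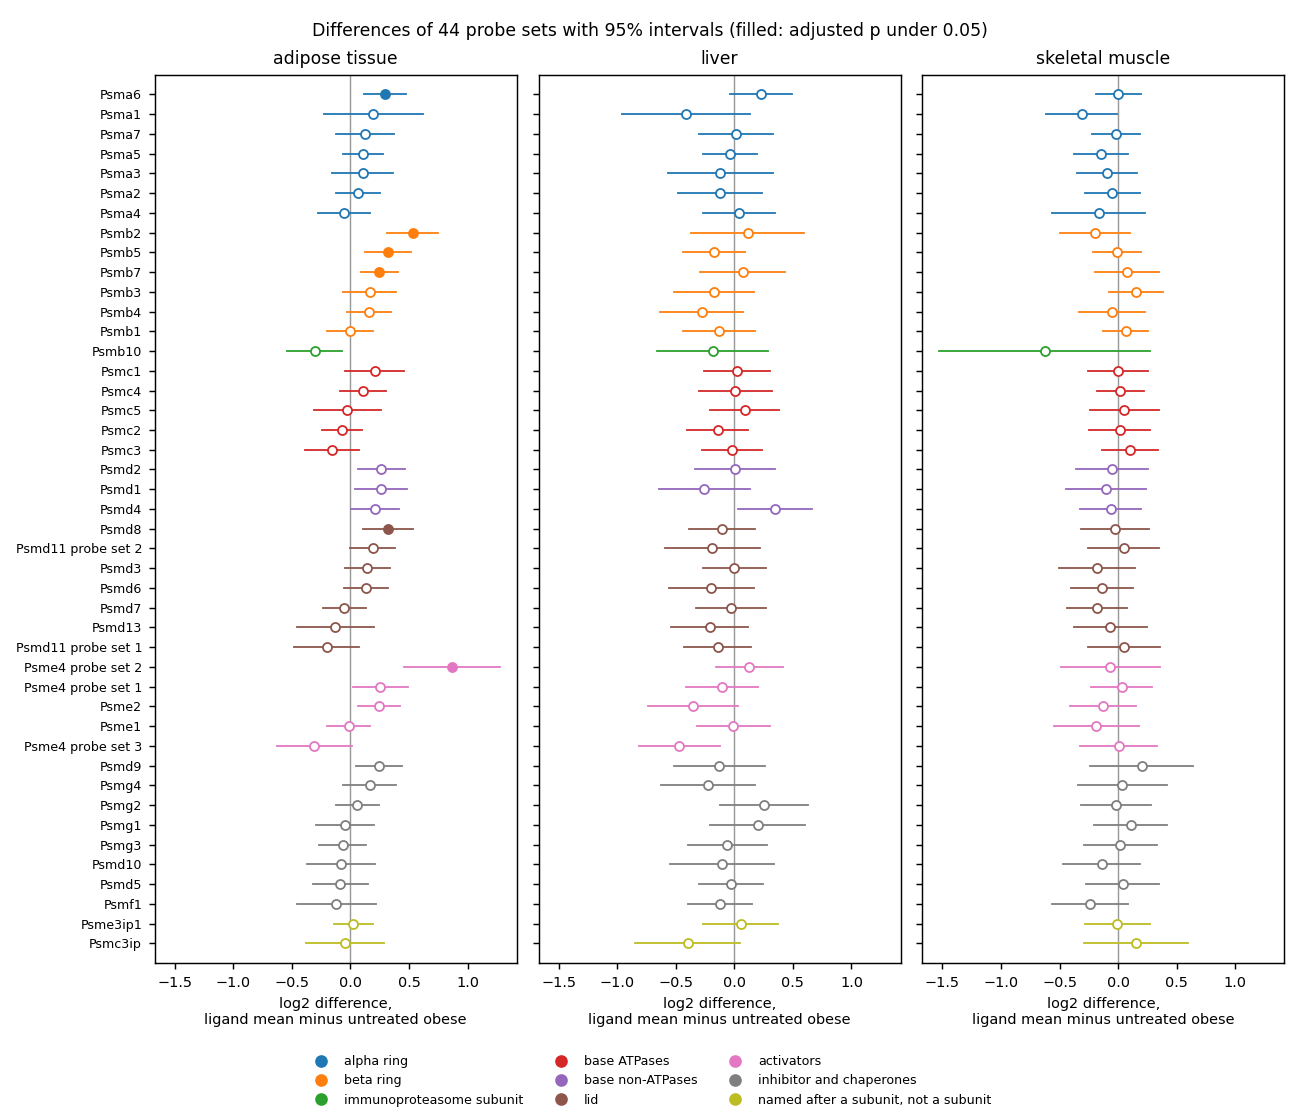
Difference between the mean of the 4 ligand groups and untreated obese rats for all 44 probe sets, in log2 units, with 95% intervals, by tissue. Filled points passed an adjusted p of 0.05, which holds for 6 probe sets of adipose tissue and 0 of the other tissues.

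Set against lean rats, the ligand groups were further apart in adipose tissue: 14 members higher and 1 lower of 44, beside 35.5% of all probe sets called, 14.4% higher and 21.1% lower (limma). This comparison and the one with obese rats use the same 12 ligand arrays. Psmb5 differed by 0.66 ± 0.09 (adjusted p = 3.2e-05), Psmd1 by 0.69 ± 0.11 (8.78e-05) and Psmb2 by 0.63 ± 0.10 (0.00013, limma). All 3 base non-ATPase subunits among the members were higher, with Psmd2, a scaffold subunit, at 0.33 and Psmd4 at 0.26. Psmb3, Psma4, Psmc4 and the chaperone Psmd9 were higher as well, by 0.30, 0.30, 0.35 and 0.43. Psmb10 was the member that was lower, by -0.37 ± 0.11 with an adjusted p of 0.0154 (limma). Under median centring of the arrays 20 members were higher and 0 lower, beside 3129 of 9519 probe sets called. The share of higher probe sets among all called ones moved from 40.7% to 60.2%. The Psmb10 call was lost under median centring and without lean replicate 1, 2 or 3, with adjusted p-values up to 0.0883. Of the 21 alternatives, Psmd4 was lost in 13 (adjusted p up to 0.179), Psmb3 in 7 (0.181) and Psma4 in 4 (0.127). Psma6 was lost under quantile normalization (0.127), Psmc4 without lean replicate 1 (0.0969) and Psmd2 without lean replicate 3 (0.123). In liver and muscle 0 of 44 members differed from lean rats, beside 3.18% and 1.11% of all probe sets, with 3 and 4 members at an unadjusted p under 0.05.

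Each ligand was then compared with untreated obese rats on its own. These comparisons share the 3 untreated arrays. In adipose tissue pioglitazone gave 6 calls of 44, all higher, against 14.5% of all 9519 probe sets in both directions (664 higher and 720 lower). They were Psmb2 (0.54 ± 0.13), Psme4 probe sets 1 and 2 (0.44 and 0.999), Psmd9 (0.40), Psme2 (0.34) and Psma6 (0.33). Rosiglitazone gave 3, all higher, against 5.56% (273 higher and 256 lower): Psmd1 (0.48 ± 0.14), Psme4 probe set 2 (0.86 ± 0.25) and Psma6 (0.37 ± 0.11), with adjusted p-values from 0.0438 to 0.0494 (limma). Troglitazone gave 3, all higher, against 16.9% (743 higher and 865 lower): Psmb2 (0.58 ± 0.13), Psmb5 (0.40 ± 0.12) and Psmb7 (0.32 ± 0.10). AG035029 gave 2 higher, Psmb2 (0.57 ± 0.13) and Psme4 probe set 2 (0.92 ± 0.25), and Psmb10 lower, against 15.1% (639 higher and 802 lower). Psmb2 with rosiglitazone was 0.43 ± 0.13 at an adjusted p of 0.0587 (limma). Its call with pioglitazone was lost without obese replicate 1 (adjusted p = 0.0599), and it passed in all 21 alternatives with troglitazone and with AG035029. The other pioglitazone calls were lost in 1 (Psme4 probe set 2, without obese replicate 1), 5 (Psmd9), 9 (Psme2), 9 (Psme4 probe set 1) and 13 (Psma6) of 21 alternatives, with adjusted p-values up to 0.0700, 0.110, 0.170, 0.221 and 0.189. Psmb5 and Psmb7 with troglitazone were each lost in 4, and Psme4 probe set 2 with AG035029 without AG035029 replicate 1 (0.0771) or 2 (0.0670) or obese replicate 1 (0.0994).

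No difference between ligands passed in any member. In the F-test among the 4 ligands 0 of 44 members passed in adipose tissue, liver and muscle, against 0.0315%, 0.0105% and 0% of all probe sets, with 2, 2 and 1 members at an unadjusted p under 0.05 (limma). The smallest F-test p-values in adipose tissue belonged to Psmd1 (adjusted p = 0.498) and to Psmd6, a lid subunit (0.498, limma). In each of the 6 pairs of ligands 0 members passed in each tissue, where between 0% and 0.042% of all probe sets did. In adipose tissue the shares were 0% for pioglitazone against rosiglitazone, pioglitazone against troglitazone and rosiglitazone against troglitazone. They were 0.0105% for pioglitazone against AG035029 and for troglitazone against AG035029, and 0.042% for rosiglitazone against AG035029. In liver the share was 0.0105% for rosiglitazone against troglitazone, 0.021% for rosiglitazone against AG035029 and 0% for the other pairs. In muscle it was 0.021% for pioglitazone against rosiglitazone and for troglitazone against AG035029, 0.0105% for rosiglitazone against troglitazone and 0% for the other pairs. The median 95% interval of a pair difference reached 0.27 log2 units to either side in adipose tissue, and a p that misses the threshold does not show that the ligands act alike. Doses are unknown.

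In liver 0 of 44 members differed between ligands and obese rats, against 0.494% of all probe sets, and in muscle 0 of 44, against 0.242%. At an unadjusted p under 0.05 there were 2 members in liver and 1 in muscle (limma). For single ligands the counts were 0 as well. The shares of all probe sets in liver were 0.021% for pioglitazone, 0.063% for rosiglitazone, 0.662% for troglitazone and 0.2% for AG035029. In muscle they were 0.231%, 0.0315%, 0.704% and 0.116% in the same order. In liver the smallest p belonged to Psme4 probe set 3 (-0.47 ± 0.17, adjusted p = 0.263, limma), and in muscle to Psma1, an alpha ring subunit (-0.31 ± 0.15, adjusted p = 0.695, limma). Next came Psmd4 (0.35) and Psme2 (-0.35) in liver, and Psmf1 (-0.24) and the lid subunit Psmd7 (-0.18) in muscle. Psmb10 had the lowest difference of a member in muscle, -0.63, and was at -0.18 in liver. With troglitazone alone Psmb10 was at -1.53 in muscle and -0.44 in liver, and none of these passed. Its mean muscle signal was low, 254 in obese rats and 71 with troglitazone. Residual spread was wider there: the median residual SD of a member was 0.15 log2 units for adipose tissue, 0.23 for liver and 0.21 for muscle. Summed signals of 8 adipocyte markers in muscle were 7041 to 14287 in obese rats and 17336 to 47460 under the ligands, and their part in the muscle values was not tested.

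Whether the ligand difference itself varied by tissue was tested in a fit of all 54 arrays. In that F-test 0 of 44 members passed, against 4.93% of 11520 probe sets, with 5 at an unadjusted p under 0.05. Psme4 probe set 2 and Psmb5 came nearest, with adjusted p-values of 0.0538 and 0.0638 (limma). In the direct comparison of adipose tissue with liver, where 4.43% of probe sets passed, Psmb5 was the 1 member called, with a difference of 0.50 ± 0.14 and an adjusted p of 0.0298 (limma). In liver Psmb5 read 3468, 3041 and 4194 in obese rats and from 2570.5 through 3075 to 3803 under the ligands, and these overlapped. The Psmb5 call was lost under quantile normalization (adjusted p = 0.126), without adipose obese replicate 2 (0.212) and without liver obese replicate 1 (0.0603) or 3 (0.158). In adipose tissue against muscle 0 of 44 members passed, beside 2.08% of all probe sets. The smallest adjusted p was 0.0528, for Psme4 probe set 2 (0.94 ± 0.27), and 4 members had an unadjusted p under 0.05 (limma). In liver against muscle 0 of 44 passed, beside 0.859%, with a smallest adjusted p of 0.346 and 2 members at an unadjusted p under 0.05 (limma). For obese against lean rats 0 of 44 members differed by tissue, against 0.868% of all probe sets, with 3 at an unadjusted p under 0.05 (limma).

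**Figure D3:**
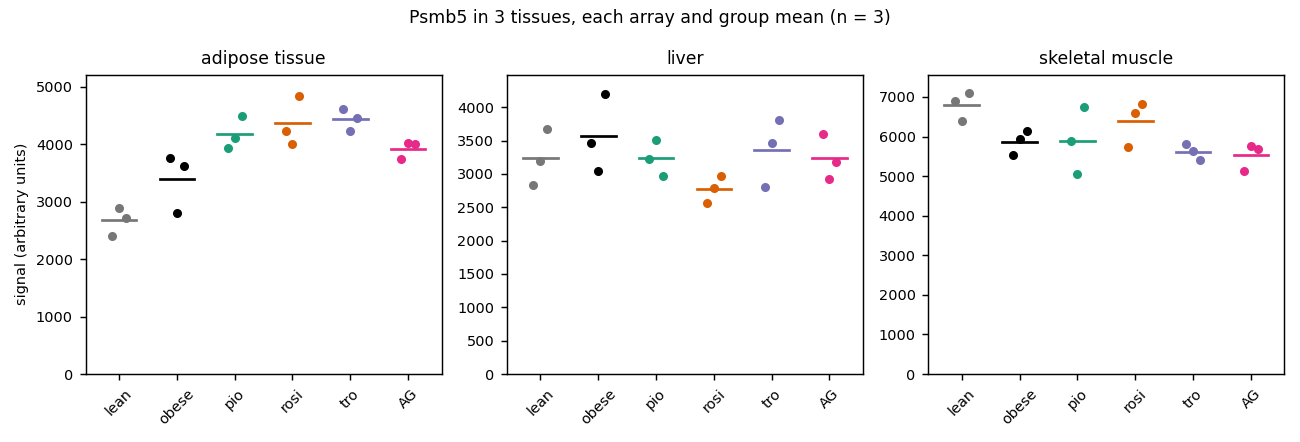
Psmb5 signal (arbitrary units, each axis from 0) in adipose tissue, liver and skeletal muscle, with points for arrays and bars for means of 3 arrays. In adipose tissue 11 of the 12 ligand arrays lie above the 3 obese arrays, while in liver and muscle the ligand arrays as a whole overlap with the obese ones.

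The tissues of lean rats themselves differed. Muscle was higher than adipose tissue for 24 of 44 probe sets and lower for 5, against 24.3% of all probe sets lower and 32.2% higher in adipose tissue. Liver was higher than adipose tissue for 17 and lower for 5, against 22.4% lower and 32.1% higher in adipose tissue. Muscle was higher than liver for 21 and lower for 11, against 29.2% and 25.4% in the same order (limma). The median of the members was -0.53 for adipose tissue minus muscle, -0.26 for adipose tissue minus liver and -0.39 for liver minus muscle, beside 0.13, 0.15 and -0.06 over all probe sets. Quantile normalization moved the median over all probe sets to 0.03, 0.04 and -0.07, and that of the members to -0.54, -0.33 and -0.32.

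By role, the ATPases of the base were the plainest case. All 5 among the members were higher in muscle than in liver, with a median of -0.71 for liver minus muscle. In muscle 4 of 5 were higher than in adipose tissue. Psmc2 signals were 6229, 4997 and 7140.2 in muscle, 3149.6, 3494 and 2573 in liver and 2434, 2206 and 2092 in adipose tissue of lean rats, and no tissue overlapped with another. The adipose tissue minus muscle difference was -1.43 ± 0.13 (adjusted p = 2.37e-12, limma). The difference for Psmb5, for which muscle read 6885, 6401 and 7103, was -1.34 ± 0.13. Psme4 was higher in muscle in all 3 probe sets than in adipose tissue, with probe set 3 at -2.33 ± 0.20 (adjusted p = 2.11e-13, limma).

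A few members ran against that order. Psmb10 signals in lean rats were 273, 83.5 and 167 in muscle, 586, 387 and 586 in liver and 648, 644 and 644 in adipose tissue, and the difference of adipose tissue minus muscle was 1.90 ± 0.38 (adjusted p = 4.26e-05, limma). Psme2 read 838, 788 and 829.5 in muscle, 1824, 3232 and 1963 in liver and 1507, 1496 and 1344 in adipose tissue. Psme1, Psme2, Psmf1, an inhibitor of the core, and Psmd8 were also higher in both other tissues than in muscle. Psmd9 and Psmd5, both base chaperones, were higher in liver than in muscle by 1.30 and 0.72. Between adipose tissue and liver, Psmb4 (-1.09 ± 0.18) and Psmd9 (-1.07 ± 0.22) were lower in adipose tissue, and Psmd2 (0.79 ± 0.18) and Psmc5 (0.68 ± 0.18) were higher.

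**Figure D4:**
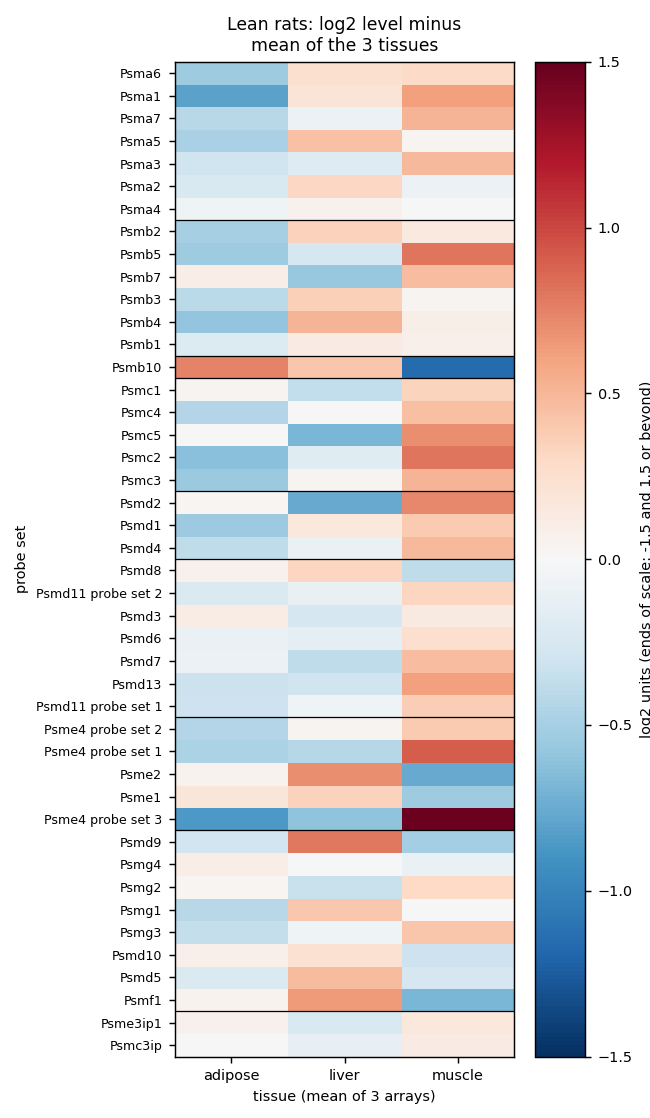
Mean log2 level in lean rats of each of the 44 probe sets in adipose tissue, liver and muscle, minus the mean of the 3 tissues for that probe set (colour, log2 units), with lines between roles. Psmb10, Psme1 and Psme2 are lowest in muscle, and Psmc2, Psmb5 and the 3 Psme4 probe sets are highest there.

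Members varied together a little more than other probe sets once group means were removed. The mean correlation between 2 members over 18 arrays was 0.07 (adipose tissue), 0.05 (liver) and 0.14 (muscle), beside 0.00 for all tested probe sets in each. Within the 19S particle it was 0.23, 0.12 and 0.30 and within the standard core 0.02, 0.20 and 0.09 in the same order. The probe sets share arrays and scaling, and these values are descriptions.

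Genes that work with the proteasome were read from lists. Of 15 proteasome partners tested in adipose tissue 3 were higher under the ligands and 0 lower, where 20.6% of all probe sets were called, 9.01% higher and 11.6% lower: the shuttle factor Rad23b (0.37 ± 0.10), the shuttle factor Ubqln1 (0.39 ± 0.09) and Nploc4, a cofactor of the segregase Vcp (0.35 ± 0.11). The transcription factors Nfe2l1 and Nfe2l2 were at -0.01 ± 0.12 and 0.00 ± 0.13, and neither passed. Of 18 ubiquitin and ligation genes 1 was higher, the conjugating enzyme Ube2d1 (0.36 ± 0.11), and 1 was lower, the ligase Stub1 (-0.33 ± 0.11). Of 12 antigen processing genes 1 was higher, B2m (0.33 ± 0.11), the light chain of class I molecules, and 0 were lower. The immunoproteasome subunits Psmb8 and Psmb9, which this list holds, were at -0.26 ± 0.12 and 0.19 ± 0.12, and neither passed. For obese against lean rats, where 6.02% of all probe sets were called, the partners gave 2 higher, Pomp (0.60 ± 0.11), which assembles the core, and Ubqln1 (0.40 ± 0.11). Ube2n (0.53 ± 0.15) was higher, and Tap1 (-0.83 ± 0.21), a peptide transporter, and Irf9 (-0.61 ± 0.12), an interferon signalling factor, were lower. The list medians for the ligands against obese rats were 0.10 for partners, 0.04 for ubiquitin genes and 0.00 for antigen processing, beside -0.05 over all probe sets. In liver and muscle 0 genes of these lists passed in either comparison. For the ligands against lean rats in adipose tissue 1374 of 9519 probe sets were higher and 2006 lower. There 9 of 15 partners were higher and 1 lower, and 5 of 18 ubiquitin genes were higher and 0 lower. Of 12 antigen processing genes 1 was higher and 5 were lower. In that comparison 1 partner was lower in liver and 0 genes of these lists passed in muscle.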

How the data were processed

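The deposited values were linear intensity values, MAS5 signals that the authors computed per the submitters' processing notes, which name no version, from Affymetrix Rat Expression 230A arrays. The mean after trimming 2% of probe sets at each end was 500 on every array, and the values were not rescaled. Of the probe sets, 12783 had 1 symbol, 312 several and 2771 none, and all 44 member symbols matched the RefSeq gene table by Entrez identifier. The members, lists and alternatives were chosen with earlier results of these data known.

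Signals were used as log2(signal + 20). Probe sets whose mean log2 value was above the 40th percentile in a tissue were tested with limma 3.58.1 in R 4.3.3 (lmFit, eBayes with trend), in 1 fit per tissue of 18 arrays with 12 residual degrees of freedom. P-values were adjusted by Benjamini-Hochberg over all tested probe sets, with a threshold of 0.05. Tissue comparisons used a joint fit of 54 arrays with 36 residual degrees of freedom. Differences are on the log2(signal + 20) scale, which understates changes of low signals. The number of arrays limits the precision. Members named with values had the smallest p-values or largest differences in a comparison or role. The catalytic subunits Psmb5, Psmb7 and Psmb10, and Psme1 and Psme2, were always given for the ligand mean against obese rats in adipose tissue. Psme4, Psmd11, Psmd6, Psmd2, Psmd4, Psmc4 and Psmb3 were also named where a count turned on them. The fits were tested on simulated data. A change of 0.5 log2 units between ligands and obese rats was called for 58.9% of changed probe sets in adipose tissue. In liver the share was 11.6% and in muscle 22.7%. For obese against lean rats it was 33.0%, 3.26% and 8.70% in the order adipose tissue, liver and muscle. Of the simulated calls 2.5% to 5.33% were false. A count of 0 in liver or muscle does not show that differences of this size were absent. Alternatives were a pseudocount of 80, no filter, median centring, quantile normalization, array weights, no trend, the replicate block, fits of only the arrays compared and each array left out. Image files were not used here.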

Additional observations from a re-analysis of the deposited data

Results flagged for a closer look

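The difference between the ligand groups and untreated obese rats was larger for Psmb5 in adipose tissue than in liver, by 0.50 ± 0.14 log2 units (adjusted p = 0.0298, limma, joint fit of 54 arrays), which singled it out as a difference between tissues. In adipose tissue alone Psmb5 was higher under the ligands by 0.32, and in liver it differed by -0.18 with an adjusted p of 0.681 (limma). The test over all 3 tissues did not pass (adjusted p = 0.0638, limma).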

How the results depend on the processing

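Of 133 recomputed counts of members called under other settings than left-out arrays, 6 moved by more than 1.5 times. Many of these counts, among them those within liver and muscle, were 0 in the main fit. A count also does not show which members were called. Under quantile normalization the ligand mean count against obese in adipose tissue stayed at 6, though Psmb5, Psma6 and Psmb7 were lost. Ligand mean against obese in adipose tissue gave 10 (10 higher, 0 lower) under median centring, where 1805 of 9519 probe sets were called. It gave 11 (10 higher, 1 lower) with array weights, where 2662 were called, against 6 (6 higher, 0 lower), where 1963 were. Troglitazone against obese gave 8 under median centring, against 3, with 1530 and 1608 probe sets called. There the median over all probe sets moved from -0.07 to 0.07. AG035029 against obese gave 5 (4 higher, 1 lower) under quantile normalization, against 3 (2 higher, 1 lower), with 1596 and 1441 called. The tissue difference of the ligand mean gave 1 under quantile normalization and 1 under median centring, against 0, with 704, 522 and 568 of 11520 called. With each array left out in turn the adipose counts ran from 0 to 1 for obese against lean (1 without obese replicate 2 and 1 without troglitazone replicate 2), 3 to 8 for the ligand mean against obese (3 without obese replicate 2), 10 to 16 against lean, 2 to 7 for pioglitazone (2 without obese replicate 1), 0 to 4 for rosiglitazone (moved by over 1.5 times in 12 of 18), 2 to 4 for troglitazone and 1 to 4 for AG035029 (1 without obese replicate 1). The tissue difference ran from 0 to 1, and the lean tissue pairs from 18 to 24, 27 to 31 and 26 to 33. All liver and muscle counts stayed at 0. The rosiglitazone calls of Psmd1, Psme4 probe set 2 and Psma6 were lost in 10, 13 and 17 of 21 alternatives. Same-number arrays did not vary together within tissues (mean correlation of residuals 0.02, 0.00 and 0.01). Between tissues, where the labels do not say whether a number marks the same rats, same-condition and same-number arrays had mean correlations of 0.01 (adipose tissue and liver), 0.00 (adipose tissue and muscle) and 0.00 (liver and muscle), with 0 of 18 pairs over 0.1 in each. The numbers were not taken to pair samples. Low correlations between different tissues cannot decide whether the same rats gave them, and the joint fit treats all arrays as independent. With the replicate block the ligand mean count in adipose tissue was 7 against obese and 17 against lean, beside 1935 and 3341 of 9519 probe sets called. The count was 0 for obese against lean, beside 587, and no count moved by over 1.5 times. In lean rats the block gave 19 for adipose tissue and liver, 29 for adipose tissue and muscle and 26 for liver and muscle. Without it these were 22, 29 and 32. With the block 5547, 5775 and 5722 of 11520 probe sets were called, against 6272, 6510 and 6299. Precision is limited by 3 arrays per group, and the causes of these shifts were not tested. Leaving out the liver array with muscle markers was chosen after seeing the data, and so were the alternatives for the Psmb5 tissue difference. The liver counts were 0 with and without that array.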
